A study of Mus musculus with 2 samples.

Results

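A set of 9 genes that mark naive and stem-like T cells were followed across islet immune cells: Tcf7, Lef1, Id3, Klf2, Klf3, Bach2, Satb1, Foxp1 and Slamf6. They were picked by gene symbol, and all 9 of 9 were found among the 27998 genes of the matrices. Except for Slamf6, they encode transcriptional regulators. Slamf6 encodes a surface receptor that is widely used as a stand-in for TCF-1 protein when stem-like T cells are sorted.

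The cells were CD45.1+ leukocytes, sorted by flow cytometry out of islets taken from female NOD/ShiLtJ mice, an inbred strain in which T cells attack the insulin-producing beta cells. One group was 12 weeks old and the other 7 weeks old, no treatment or engineered allele is given for either, and each age is 1 droplet library (10x Genomics Chromium, 3' chemistry). The number of mice behind a library is not given in the sources used here, so age, library and animal cannot be told apart and no difference below has a replicate check. All intervals are 95% intervals of counting error only.

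Naive T cells and the stem-like cells that renew effector and exhausted T cells share a set of regulators that holds back differentiation. TCF-1 (from Tcf7) and LEF1 are related DNA-binding proteins that act with beta-catenin or with TLE co-repressors. KLF2 turns on the receptors that let lymphocytes leave tissue and recirculate, and its gene is a target of FOXO1. ID3 blocks E proteins, BACH2 restrains effector genes, FOXP1 keeps naive T cells quiescent, and SATB1 organises chromatin in developing and mature T cells. Several of these genes also work in B cells, so their presence alone does not name a T cell.

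The 12 week library held 19288252 unique molecular identifiers (UMIs) in 2812 barcodes and the 7 week library 8701184 UMIs in 1113 barcodes. After filtering, 2741 cells at 12 weeks and 1099 cells at 7 weeks remained, with medians of 4934 and 5643 UMIs, and 2 cell barcodes occurred in both libraries. Classes were set by UMI limits on a few marker genes. CD8 T cells (457 at 12 weeks, 171 at 7 weeks) and CD4 T cells (822 and 357) had a CD3 UMI and either Cd8 or Cd4 UMIs alone. Foxp3 T cells (100 and 83) overlapped the CD4 T cells by 57 and 50 cells, Ncr1+ cells numbered 70 and 90, and B cells 683 and 182. Of the Ncr1+ cells, 60 at 12 weeks and 76 at 7 weeks held a CD3 UMI, so the class is called by its gene and not as natural killer cells. The 7 week cells were deeper in each of these 5 classes, for example with a median of 5882 UMIs against 4668 in 12 week CD4 T cells, and shares of cells are therefore also given after every cell was thinned to 3000 UMIs.

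Upstream windows are shown for 3 members, those of Lef1, the one member past 1.5-fold higher at 12 weeks in CD8 T, CD4 T and Foxp3 T cells, and of Klf2 and Klf3, which were lower in most classes. They run 5' to 3' on the plus strand, come from the RefSeq promoter table for GRCm38.p6, and stop before the gene as GENCODE vM21 annotates it. Capitals mark the GC box GGGCGGG. The Lef1 window is chr3:131110047-131110296, the Klf2 window chr8:72318812-72319032, and the Klf3 window chr5:64803271-64803387. 
Lef1: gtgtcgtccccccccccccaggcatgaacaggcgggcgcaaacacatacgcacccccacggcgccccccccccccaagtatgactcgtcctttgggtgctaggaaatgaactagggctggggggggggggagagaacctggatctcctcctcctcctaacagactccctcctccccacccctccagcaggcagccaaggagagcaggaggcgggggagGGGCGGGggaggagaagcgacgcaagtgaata
Klf2: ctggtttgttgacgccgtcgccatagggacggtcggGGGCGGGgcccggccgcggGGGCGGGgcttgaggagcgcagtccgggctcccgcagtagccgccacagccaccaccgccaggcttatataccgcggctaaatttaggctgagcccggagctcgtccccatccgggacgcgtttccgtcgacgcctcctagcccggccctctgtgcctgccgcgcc
Klf3: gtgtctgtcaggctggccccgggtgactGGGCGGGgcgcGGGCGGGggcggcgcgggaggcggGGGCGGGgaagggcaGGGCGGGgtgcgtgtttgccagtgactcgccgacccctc
Lef1 has 1 such box, Klf2 has 2 and Klf3 has 4. Within 250 bases upstream of the most upstream RefSeq start, 6 of the 9 members hold a GC box on either strand. They are Tcf7, Lef1, Id3, Klf2, Klf3 and Foxp1, and 23.4% of 32851 windows of that length in the promoter table hold one. These 250-base windows were not cut at the GENCODE gene. Those of Id3, Bach2 and Foxp1 lie wholly within the annotated gene, and those of Klf2 and Klf3 run into it. A match is thus not always upstream of the gene. The Tcf7 window ends where the annotated gene begins, but from an ATG shortly before its GC box it reads to its end without a stop codon. That box may thus lie in coding sequence, and whether the windows hold coding sequence was not tested. The GC content of the 250-base windows was 66.4% for Lef1, 71.2% for Klf2 and 78.4% for Klf3, against a median of 52.4% over all windows. A search of both strands for CTTTGAA or CTTTGAT (TCF/LEF), GTAAACA (FOXO) and CCACACCC or CCACGCCC (KLF) found a match in 0 of 9 members. These letters occur in 7.48%, 3.17% and 7.72% of all windows. With shares this low, 0 of 9 is not read as a lack of such sites. The Lef1 window overlaps an exon of the antisense gene Gm43352 and the Klf3 window an exon of Gm20033 on the other strand. Both overlaps lie before the gene as annotated, and overlap with the counted exons of Lef1 and Klf3 was not looked for. Whether UMIs were counted by strand is not given in the sources used here. Any part of antisense reads in the Lef1 and Klf3 counts was not tested.

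Lef1 had the highest 12 over 7 week ratio of the 9 members in CD4 T and in CD8 T cells. In CD4 T cells it stood at 224 CPM (UMIs per 1000000 UMIs of the class; interval 211 to 238) at 12 weeks and 115 CPM (102 to 128) at 7 weeks, and in CD8 T cells at 201 CPM (186 to 217) and 122 CPM (105 to 141). The 12 over 7 week ratio was 1.96 (1.73 to 2.22) in CD4 T cells and 1.65 (1.40 to 1.96) in CD8 T cells. More cells held the transcript and those that did held more of it. After thinning, 40.3% of CD4 T cells at 12 weeks (331 of 822 cells) and 26.7% of 344 at 7 weeks (92 cells) had a Lef1 UMI, and these cells carried a mean of 2.12 and 1.75 UMIs. The thinned shares of CD8 T cells were 41.8% and 27.6%, with means of 2.10 and 1.84 UMIs. Cells with 3 or more Lef1 UMIs made up 12.2% of the 12 week CD4 T cells and 6.10% of the 7 week ones. Without the 5 cells of each library richest in Lef1, the log2 ratio was 1.10 in CD4 T cells and 0.94 in CD8 T cells, against 0.97 and 0.72 with them.

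The same direction was seen for Lef1 in the smaller classes. Foxp3 T cells had 68.0 CPM (58 UMIs) at 12 weeks and 40.5 CPM (34 UMIs) at 7 weeks, a ratio of 1.68 (1.08 to 2.64) whose log2 value of 0.75 was 0.38, short of 1.5-fold, when no doublets were removed. Ncr1+ cells had 82.8 CPM (33 UMIs) and 29.0 CPM (20 UMIs), a ratio of 2.85 (1.59 to 5.24). B cells, which should lack Lef1, gave a background of 5.51 CPM (23 UMIs) at 12 weeks and 13.3 CPM (17 UMIs) at 7 weeks, with a UMI in 1.61% and 1.70% of thinned cells at median depths of 4698 and 5306 UMIs before thinning. The level in T cells was therefore well above this background at both ages. The B cell gap between the ages is not read as a difference, since 7 of the 17 UMIs at 7 weeks lay in 1 cell and the log2 ratio of -1.27 came to -0.08 in thinned cells. In macrophages and plasmacytoid dendritic cells, gated after the data were seen, Lef1 had 1 UMI in 24 cells and 1 UMI in 32 cells at 12 weeks, and 0 in 2 cells and 2 UMIs in 15 cells at 7 weeks.

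Tcf7, the close relative of Lef1, did not share its direction. In CD4 T cells it stood at 200 CPM (188 to 213) at 12 weeks and 245 CPM (226 to 264) at 7 weeks, a ratio of 0.819 (0.742 to 0.904). CD8 T cells stood at 132 CPM (120 to 145) and 129 CPM (112 to 149), a ratio of 1.02 (0.861 to 1.22). Within each of these 2 classes the interval of the Lef1 ratio lies wholly above that of Tcf7. The thinned shares of Tcf7 cells were close, at 39.7% and 42.7% of CD4 T cells and 34.6% and 28.8% of CD8 T cells. At 7 weeks 9.01% of CD4 T cells held 3 or more Tcf7 UMIs, against 5.47% at 12 weeks. Foxp3 T cells carried less Tcf7, 59.8 CPM at 12 weeks and 50.1 CPM at 7 weeks, and Ncr1+ cells 125 CPM and 135 CPM, with both ratio intervals spanning 1. B cells were at 5.27 CPM and 8.60 CPM, with a UMI in 1.02% and 1.70% of thinned cells. Tcf7 had 0 UMIs in 24 macrophages at 12 weeks and in 2 at 7 weeks.

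**Figure D1:**
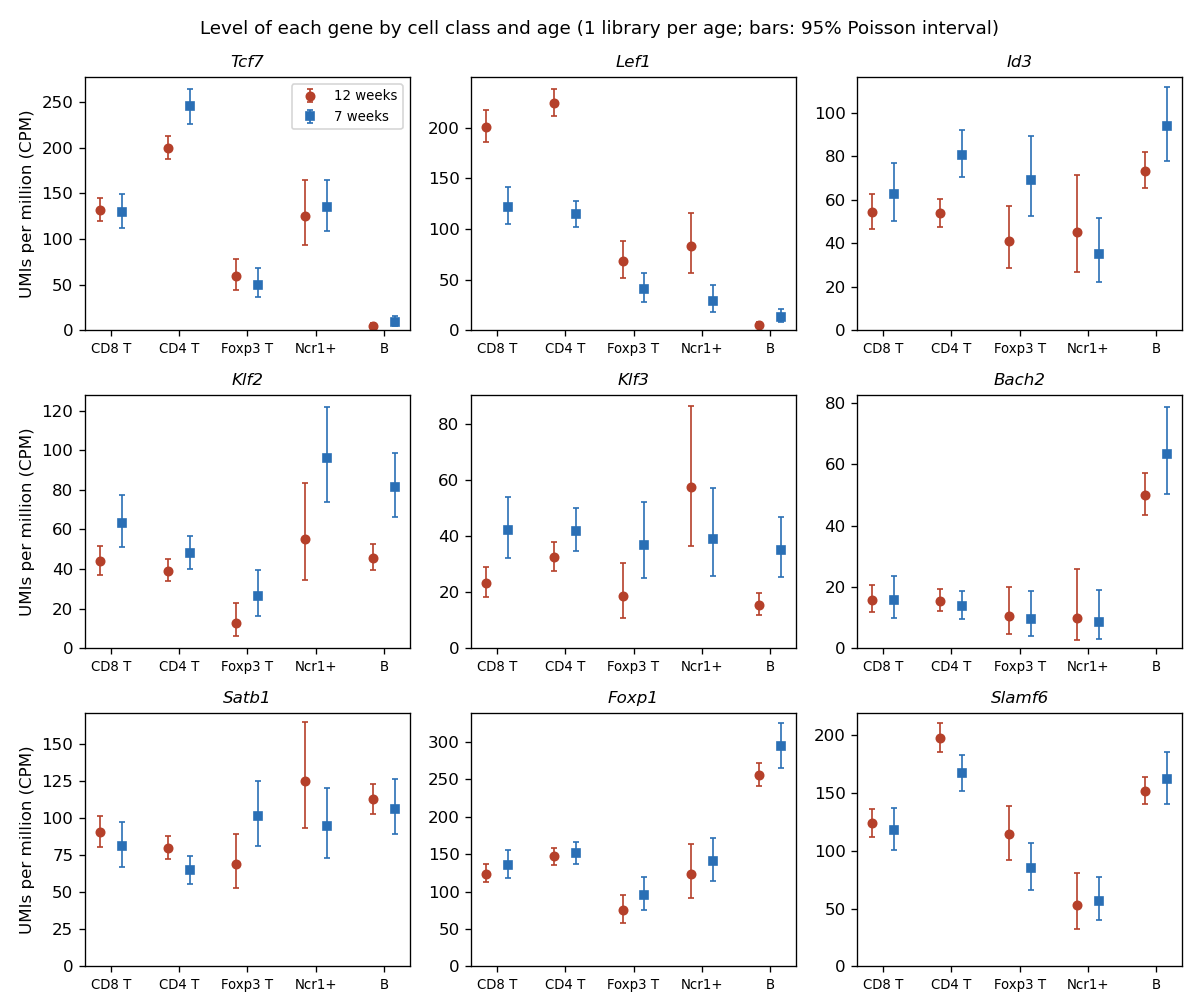
Level of the 9 genes (CPM, UMIs per 1000000 UMIs of the class, vertical axis) in 5 cell classes (horizontal axis) at 12 weeks (circles) and 7 weeks (squares), 1 library per age, with 95% Poisson intervals. Lef1 is higher at 12 weeks in the T cell classes and in Ncr1+ cells (224 against 115 CPM in CD4 T cells), Klf2 is lower at 12 weeks in CD8 T, Ncr1+ and B cells (45.5 against 81.3 CPM in B cells), and Tcf7 and Lef1 are near 0 in B cells.

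The Kruppel-like factors Klf2 and Klf3 were lower at 12 weeks in most classes. Klf2 was at 44.0 CPM (37.2 to 51.7) at 12 weeks and 63.3 CPM (51.1 to 77.6) at 7 weeks in CD8 T cells, a ratio of 0.695 (0.533 to 0.910). CD4 T cells held 39.0 CPM and 48.0 CPM, and the ratio of 0.814 (0.650 to 1.02) spans 1. The thinned shares of Klf2 cells were closer than the CPM, at 16.8% and 18.4% of CD8 T cells and 12.8% and 13.7% of CD4 T cells, and the thinned log2 ratios were -0.33 and -0.09. B cells showed the clearest gap, with 45.5 CPM (39.3 to 52.5) at 12 weeks and 81.3 CPM (66.4 to 98.5) at 7 weeks, a ratio of 0.560 (0.439 to 0.718) and thinned shares of 15.1% and 25%. The 9 T cell markers, with Cd2 the highest, summed to 4.66 and 6.90 UMIs per 10000 in B cells. The part of T cell transcripts in the Klf2 and Klf3 values of B cells was not tested. Ncr1+ cells had 55.2 CPM and 95.9 CPM, a ratio of 0.576 (0.338 to 0.945) that on the log2 scale was -0.80, and -1.99 in the few Ncr1+ cells with no CD3 UMI (10 at 12 weeks, 14 at 7 weeks). Foxp3 T cells held only 11 and 22 Klf2 UMIs, and the log2 ratio of -1.02 there was 0.23 once cycling cells (3 or more UMIs of a 10-gene list) were left out.

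Klf3, a repressor of the same family, was at 23.3 CPM (18.5 to 29.1) at 12 weeks and 42.2 CPM (32.4 to 54.1) at 7 weeks in CD8 T cells, a ratio of 0.553 (0.391 to 0.783). In B cells it was at 15.3 CPM (11.8 to 19.6) and 35.2 CPM (25.6 to 47.0), a ratio of 0.436 (0.293 to 0.653), with thinned shares of 4.83% and 12.5%. CD4 T cells lay closer together, at 32.5 CPM and 41.8 CPM with a ratio of 0.776 (0.608 to 0.993). Ncr1+ cells went the other way in value, at 57.7 CPM (23 UMIs) and 39.2 CPM (27 UMIs), with an interval of 0.806 to 2.67 that spans 1. Klf3 in B cells kept its direction without the 5 richest cells, at a log2 ratio of -1.02 against -1.20 with them, and so did Klf2, at -0.68 against -0.84.

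Genes that respond quickly to stimulation or handling moved beside these values. The summed level of 12 immediate early and heat shock genes (among them Fos, Jun and Hspa1a) was lower at 12 weeks in CD8 T cells (27.0 against 32.6 UMIs per 10000), CD4 T cells (36.7 against 44.0), Foxp3 T cells (22.9 against 39.1) and B cells (31.5 against 39.9), and higher in Ncr1+ cells (57.3 against 49.2). The 12 genes did not all move alike. Jun had 12 over 7 week ratios of 1.12 (1.01 to 1.24) in CD8 T and 1.05 (0.982 to 1.12) in CD4 T cells, while Fos had 0.769 and 0.734. The part of these genes in the Klf2 and Klf3 values was not tested.

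Id3, the inhibitor of E proteins, was lower at 12 weeks in CD4 T cells. Its level was 53.8 CPM (47.6 to 60.6) at 12 weeks and 80.8 CPM (70.6 to 92.1) at 7 weeks, a ratio of 0.666 (0.556 to 0.798), which just passes the 1.5-fold limit used below. On the log2 scale it was -0.59, and it just missed that limit, at -0.58 to -0.54, in 7 of 12 alternatives, with -0.54 both without cycling cells and under stricter Cd4 and Cd8 limits. The thinned shares were 11.8% and 18.0%. Foxp3 T cells had 41.0 CPM (35 UMIs) and 69.1 CPM (58 UMIs), a ratio of 0.593 (0.378 to 0.918), and 68.6% and 55.2% of those UMIs came from the 5 richest cells. The log2 ratio of -0.75 was -0.19 without cycling cells and -1.35 without the 5 richest cells of each library. B cells had 73.3 CPM and 93.8 CPM, a ratio of 0.782 (0.631 to 0.974). CD8 T cells had 54.3 CPM and 62.6 CPM, with a ratio interval of 0.672 to 1.13.

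Bach2 and Foxp1 were B cell genes as much as T cell genes in these islets. Bach2 reached 50.1 CPM (43.5 to 57.3) at 12 weeks and 63.3 CPM (50.3 to 78.7) at 7 weeks in B cells, against 15.5 CPM and 13.7 CPM in CD4 T cells and 15.6 CPM and 15.7 CPM in CD8 T cells. Foxp1 reached 256 CPM (241 to 272) and 294 CPM (265 to 325) in B cells, against 147 CPM and 151 CPM in CD4 T cells and 124 CPM and 136 CPM in CD8 T cells. Neither gene had a ratio interval clear of 1 between the ages in CD8 T, CD4 T, Foxp3 T or Ncr1+ cells, and the Foxp1 ratio in B cells was 0.871 (0.774 to 0.983).

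Satb1 differed in direction between T cell classes. In CD4 T cells it was at 79.7 CPM (72.1 to 87.9) at 12 weeks and 64.6 CPM (55.4 to 74.7) at 7 weeks, a ratio of 1.23 (1.03 to 1.48) that came to 0.10 on the log2 scale once cells were thinned, against 0.30 before. In Foxp3 T cells it was at 69.1 CPM (59 UMIs) and 101 CPM (85 UMIs), a ratio of 0.682 (0.481 to 0.962). B cells held it at 113 CPM and 106 CPM and CD8 T cells at 90.3 CPM and 81.0 CPM, with both intervals spanning 1.

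Slamf6, the surface receptor, was at 197 CPM (185 to 210) at 12 weeks and 167 CPM (152 to 183) at 7 weeks in CD4 T cells, a ratio of 1.18 (1.06 to 1.32). CD8 T cells had 124 CPM and 118 CPM, and B cells 152 CPM and 162 CPM, with ratio intervals spanning 1. Ncr1+ cells were lowest, at 52.7 CPM (21 UMIs) and 56.6 CPM (39 UMIs). Its thinned shares in CD8 T cells were 30.2% and 30.7%.

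Few of the 9 members passed 1.5-fold between the ages. Among genes with at least 50 UMIs over both libraries, 1 member of 9 (Lef1) was 1.5-fold higher at 12 weeks in CD8 T cells, where 6.17% of all genes were, and 1 of 9 (Klf3) was 1.5-fold lower, where 6.35% were. In CD4 T cells 1 of 9 (Lef1) was higher against 4.10% of all genes, and 1 of 9 (Id3) lower against 8.18%. In Foxp3 T cells, where 6 of 9 members reached 50 UMIs, 1 (Lef1) was higher against 11.8% and 1 (Id3) lower against 10.5%. In Ncr1+ cells, with 7 of 9, 1 (Lef1) was higher against 7.53% and 1 (Klf2) lower against 9.06%. In B cells, with 7 of 9, 0 were higher against 7.04% and 2 (Klf2 and Klf3) lower against 8.37%. With 0 to 2 members past the limit in a class, nothing is read from these counts for the 9 genes as a set. The median log2 ratio of the members was -0.00 in CD8 T, -0.04 in CD4 T, -0.35 in Foxp3 T, 0.20 in Ncr1+ and -0.36 in B cells, beside 0.03, -0.00, 0.07, 0.04 and 0.04 over all genes. The Foxp3 T value was 0.23 without cycling cells and -1.16 without cells that met more than 1 class limit.

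**Figure D2:**
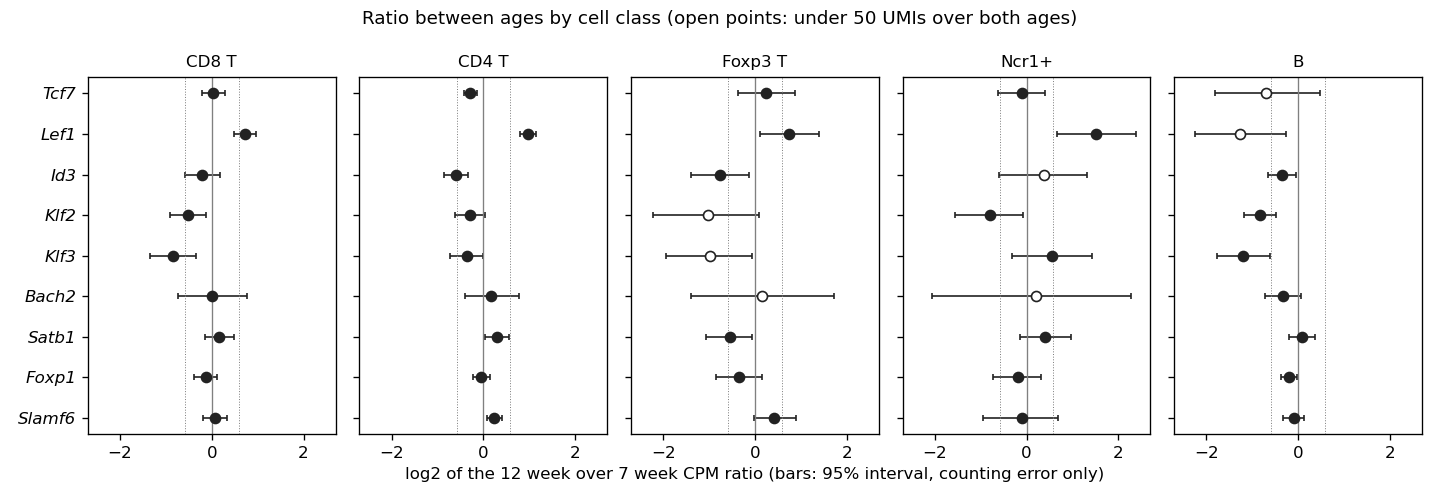
Log2 of the 12 week over 7 week CPM ratio (horizontal axis) of each gene (rows) in 5 cell classes (panels), 1 library per age, with 95% intervals for counting error only; dotted lines mark 1.5-fold and open points rest on under 50 UMIs. Lef1 lies to the right in the T cell and Ncr1+ panels (0.97 in CD4 T cells), while Klf3 lies to the left in CD8 T cells (-0.86) and B cells (-1.20).

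Transcripts of other cells moved with age beside these ratios. The 13 acinar markers summed to 2.56 UMIs per 10000 in 12 week CD4 T cells and 0.260 in 7 week ones, with Amy2a5 at 0 UMIs at both ages and 3 of the 13 markers at 0 at 7 weeks. Over the 5 classes the sums ran between 2.08 and 2.81 in the 12 week library and between 0.247 and 0.664 in the 7 week library. The 8 endocrine markers summed to 15.2 and 0.375 in CD4 T cells, where 1 cell of the 12 week library held 6688 of 7065 Gcg UMIs, and in the other classes to 1.25 to 1.77 and 0.203 to 0.320. The 8 macrophage markers summed to 13.9 and 6.12 in CD4 T cells, where 1 cell at 12 weeks held 3080 of 5220 Lyz2 UMIs, and in the other classes to 0.680 to 1.67 at 12 weeks and 0.617 to 11.7 at 7 weeks. The cycling share of CD8 T cells was 22.5% in the 12 week library and 31.0% in the 7 week library, and that of CD4 T cells 14.4% and 24.6%. Without them the Lef1 log2 ratio was 0.68 in CD8 T cells and 0.82 in CD4 T cells. The part of the pancreatic and macrophage transcripts in the ratios was not tested.

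Within CD8 T cells the members were set by Ccl5, a chemokine gene of effector and memory cells. Ccl5 low cells (at most 3 UMIs; 214 at 12 weeks, 74 at 7 weeks) were compared with Ccl5 high cells (at least 10 UMIs; 214 and 85), and 29 and 12 cells lay between. Lef1 was at 474 CPM (436 to 515) in Ccl5 low and 40.8 CPM (31.9 to 51.5) in Ccl5 high cells at 12 weeks, an 11.6-fold difference (9.07 to 15.1). At 7 weeks it was at 257 CPM (215 to 304) and 49.9 CPM (35.3 to 68.4), a 5.15-fold difference (3.57 to 7.60). The age difference of Lef1 lay in the Ccl5 low cells, with a 12 over 7 week ratio of 1.85 (1.53 to 2.25), against 0.818 (0.544 to 1.25) in Ccl5 high cells. At 12 weeks 26.6% of thinned Ccl5 low cells held 3 or more Lef1 UMIs and 17.1% did at 7 weeks, against 0 of 214 and 0 of 82 Ccl5 high cells.

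Tcf7 was at 188 CPM in Ccl5 low and 98.3 CPM in Ccl5 high cells at 12 weeks, a ratio of 1.91 (1.56 to 2.35). The 7 week levels were 234 CPM and 76.1 CPM, with a ratio of 3.07 (2.23 to 4.28). Foxp1 gave ratios of 2.81 (2.27 to 3.50) and 3.44 (2.50 to 4.77), and Satb1 2.37 (1.85 to 3.04) and 3.80 (2.46 to 6.0) at the same ages. Slamf6 was nearly level at 12 weeks, at 137 CPM and 127 CPM (ratio 1.08, 0.875 to 1.33), but at 173 CPM and 86.6 CPM at 7 weeks (1.99, 1.43 to 2.78). Bach2 had 37 and 9 UMIs at 12 weeks, a ratio of 6.01 (2.85 to 14.2), and 11 and 9 UMIs at 7 weeks.

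At 12 weeks 7 of the 8 members with at least 50 UMIs were 1.5-fold higher in Ccl5 low cells, against 8.93% of all genes, and 0 were lower, against 26.8%. At 7 weeks 8 of 8 were higher, against 5.35%, and 0 lower, against 18.9%. Klf3 was among them at both ages, at ratios of 1.55 (0.941 to 2.55) and 1.56 (0.911 to 2.69) whose intervals span 1. The median log2 ratio of the members was 1.05 at 12 weeks and 1.47 at 7 weeks, beside -0.24 and -0.15 over all genes. The members were picked as genes of naive and stem-like cells with earlier results of these data known, and Ccl5 marks effector and memory cells. Higher levels in Ccl5 low cells were thus likely beforehand, and the counts are not read as a result for the set. Ccl5 high cells were more often cycling, 6.07% of Ccl5 low against 35.5% of Ccl5 high cells at 12 weeks and 14.9% against 44.7% at 7 weeks. Without cycling cells the medians were 0.42 and 0.61, Tcf7 came to 0.01 and 0.56 on the log2 scale, and Slamf6 to -0.63 and 0.45, while Lef1 was at 3.17 and 2.23. The 8 macrophage markers summed to 0.848 UMIs per 10000 in Ccl5 low cells at 12 weeks and 6.79 at 7 weeks, where 1 cell held 106 of 113 Apoe UMIs. The 7 plasmacytoid dendritic cell markers summed to 9.70 in Ccl5 low and 1.51 in Ccl5 high cells at 12 weeks and to 3.51 and 1.73 at 7 weeks, and their part in the contrast and in the Lef1 age ratio of Ccl5 low cells was not tested.

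Within CD4 T cells the same was done by Lag3, an inhibitory receptor gene of activated cells. Lag3 low cells (at most 4 UMIs; 671 at 12 weeks, 279 at 7 weeks) were set against Lag3 high cells (at least 5 UMIs; 151 and 78). Lef1 was at 279 CPM (263 to 297) in Lag3 low and 47.0 CPM (35.5 to 61.0) in Lag3 high cells at 12 weeks, and at 142 CPM (126 to 159) and 40.5 CPM (27.3 to 57.8) at 7 weeks. The low over high ratios were 5.95 (4.54 to 7.92) and 3.50 (2.40 to 5.28). Between the ages Lef1 gave a ratio of 1.97 (1.73 to 2.25) in Lag3 low cells and 1.16 (0.732 to 1.87) in Lag3 high cells. Klf2 was at 48.8 CPM and 7.55 CPM at 12 weeks and rested on 122 and 11 UMIs at 7 weeks, with ratios of 6.46 (3.33 to 14.4) and 4.04 (2.18 to 8.31).

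Satb1 was 5.62-fold higher (3.62 to 9.18) in Lag3 low cells at 12 weeks, at 99.0 CPM against 17.6 CPM, but at 70.9 CPM against 47.3 CPM at 7 weeks, a ratio just under 1.5 (1.03 to 2.24). Its age ratio was accordingly 1.40 (1.15 to 1.70) in Lag3 low and 0.373 (0.206 to 0.659) in Lag3 high cells. The Lag3 high value rests on 21 UMIs at 12 weeks and 35 UMIs at 7 weeks, of which 65.7% at 7 weeks came from 5 cells. In these cells the macrophage markers summed to 36.9 and 0.50 UMIs per 10000, with 3080 of 3138 Lyz2 UMIs in 1 cell at 12 weeks, and their part was not tested. Slamf6 lay close in both groups, with low over high ratios of 1.19 (1.02 to 1.39) at 12 weeks and 0.770 (0.632 to 0.942) at 7 weeks.

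At 12 weeks 8 of 9 members were 1.5-fold higher in Lag3 low cells, against 8.48% of all genes, and 0 lower, against 13.5%. At 7 weeks 4 of 8 were higher (Lef1, Id3, Klf2 and Klf3), against 7.89%, and 0 lower, against 8.22%. The members' median log2 ratios were 1.06 and 0.96, beside -0.11 and -0.04 over all genes, and 0.90 and 1.10 without cycling cells. Because Lag3 marks activated cells and the members naive and stem-like ones, higher levels in Lag3 low cells were likely beforehand. These counts too are not read as a result for the set. Bach2 counted among the 8 at 12 weeks, at a ratio of 1.56 on 65 and 13 UMIs, with an interval of 0.849 to 3.08 that spans 1. On the log2 scale it was 0.64, and -0.07 in thinned cells.

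**Figure D3:**
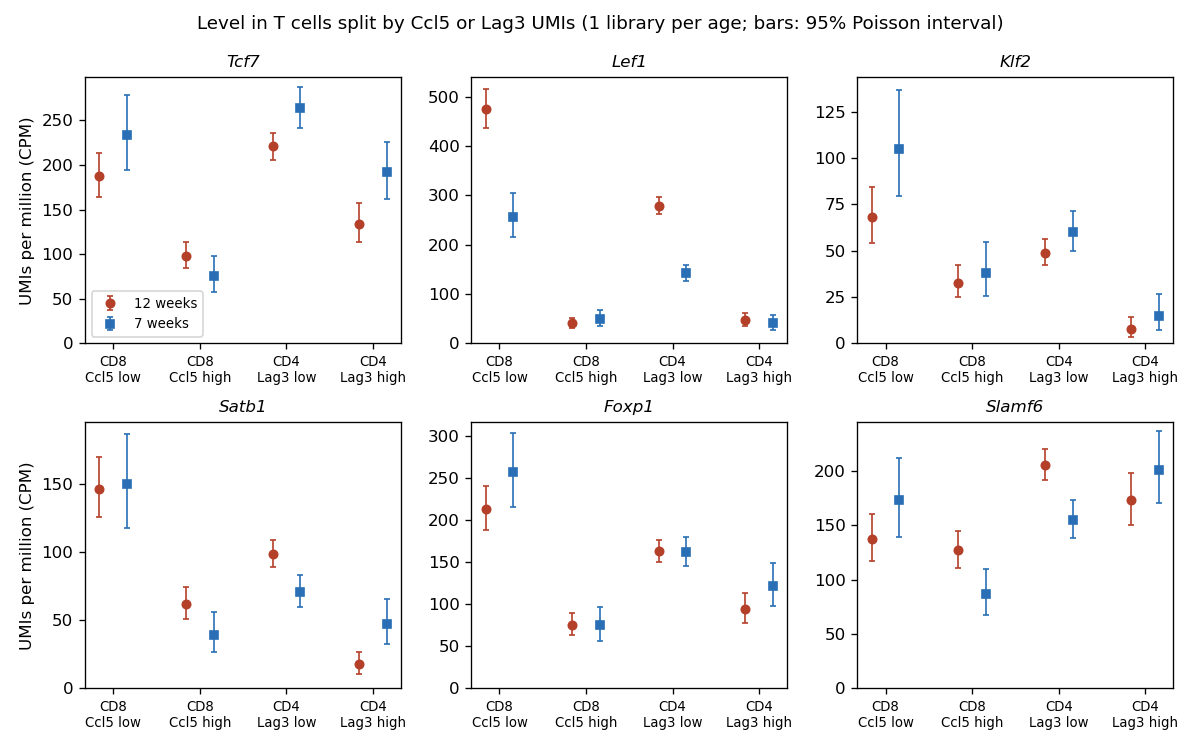
Level of 6 genes (CPM, UMIs per 1000000 UMIs of the class, vertical axis) in CD8 T cells with low or high Ccl5 and CD4 T cells with low or high Lag3 (horizontal axis) at 12 weeks (circles) and 7 weeks (squares), 1 library per age, with 95% Poisson intervals. Lef1 lies between 40.5 and 49.9 CPM in the high groups and reaches 474 CPM in Ccl5 low cells at 12 weeks, while Slamf6 lies between 155 and 205 CPM in the 4 Lag3 groups.

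The members' levels were then read by the UMIs of Ccr7, S1pr1 and Il7r, a chemokine receptor that guides cells into lymph nodes, a receptor for tissue exit and the interleukin 7 receptor. This split was chosen after the age ratios were seen, and cells were thinned first. Cells with 3 or more of these UMIs made up 23.4% of CD4 T cells at 12 weeks (192 cells) and 11% at 7 weeks (38 cells), and 16% and 13.5% of CD8 T cells. In CD4 T cells Lef1 was at 122, 324 and 512 CPM over cells with 0, 1 or 2, and 3 or more receptor UMIs at 12 weeks, and at 70.4, 235 and 360 CPM at 7 weeks. The age ratio was 1.73 (1.20 to 2.52), 1.38 (1.07 to 1.79) and 1.42 (1.02 to 2.03), so each interval lies above 1. Over CD8 T cells the Lef1 ratios were 1.91 (1.16 to 3.31), 1.77 (1.23 to 2.61) and 1.35 (0.887 to 2.11), and the last interval spans 1.

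Tcf7 was flatter over the same CD4 T cells, at 188, 229 and 227 CPM at 12 weeks and 227, 274 and 342 CPM at 7 weeks. Id3 in CD4 T cells ran the other way between the ages, at 65.7, 51.7 and 34.7 CPM at 12 weeks and 77.3, 110 and 140 CPM at 7 weeks. Its age ratio was 0.850 (0.574 to 1.27), 0.470 (0.297 to 0.746) and 0.247 (0.122 to 0.511). The last of these rests on 20 UMIs at 12 weeks and 16 UMIs at 7 weeks. Klf2 in CD4 T cells was at 22.5, 54.0 and 104 CPM at 12 weeks and at 43.0, 74.4 and 70.2 CPM at 7 weeks, where the last value rests on 8 UMIs. Satb1, higher at 12 weeks over all CD4 T cells, was not higher within the groups. Its age ratio was 0.785 (0.486 to 1.28), 0.988 (0.689 to 1.44) and 0.924 (0.550 to 1.63), and each interval spans 1.

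**Figure D4:**
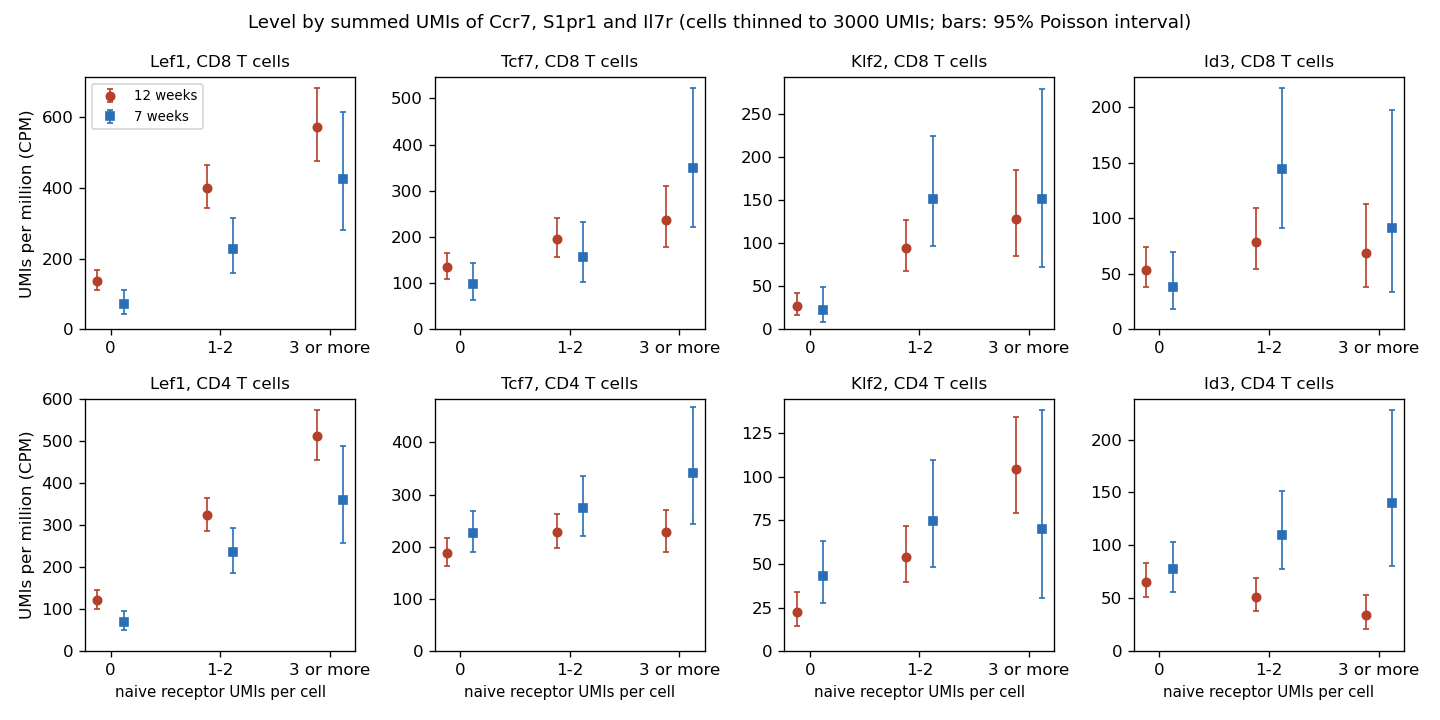
Level of Lef1, Tcf7, Klf2 and Id3 (CPM, UMIs per 1000000 UMIs of the class, vertical axis) in CD8 T cells (upper row) and CD4 T cells (lower row) grouped by the summed UMIs of Ccr7, S1pr1 and Il7r per cell (horizontal axis), at 12 weeks (circles) and 7 weeks (squares), in cells thinned to 3000 UMIs with 95% Poisson intervals. Lef1 climbs with receptor UMIs at both ages, to 512 CPM at 12 weeks and 360 CPM at 7 weeks in CD4 T cells, and Id3 in CD4 T cells is apart in the last group, at 34.7 CPM and 140 CPM.

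Within single cells Lef1 and Satb1 were found together. Among thinned CD4 T cells, Satb1 was detected in 39.6% (34.3 to 45.1) of cells with a Lef1 UMI and 11% (8.37 to 14.1) of those without at 12 weeks, and in 32.6% (23.2 to 43.2) and 11.1% (7.51 to 15.7) at 7 weeks. The shares of CD8 T cells were 38.2% and 16.9% at 12 weeks and 48.9% and 16.9% at 7 weeks. Klf2 was in 19.9% of Lef1-positive and 7.94% of Lef1-negative CD4 T cells at 12 weeks. The link of Lef1 with Tcf7 was looser in value, with Lef1 13.5 percentage points more frequent in Tcf7-positive CD8 T cells of the 12 week library and 12.0 in those of the 7 week library, and 1.89 and 5.57 points in CD4 T cells. Without cycling cells the CD8 T values were 5.60 and 3.70 points.

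Slamf6 was found more often with Tcf7 and not with Lef1. It was 17.7 and 10.7 points more frequent in Tcf7-positive CD8 T cells at 12 and 7 weeks and 6.89 and 13.4 points in CD4 T cells, against -1.51 and 0.603 points and -6.83 and -4.80 points with Lef1. In CD8 T cells at 12 weeks 41.8% (34.0 to 49.9) of Tcf7-positive and 24.1% (19.3 to 29.3) of Tcf7-negative cells had a Slamf6 UMI, the one of these differences whose 2 intervals were apart. In CD4 T cells at 12 weeks Satb1 was in 15.6% (11.9 to 19.9) of Slamf6-positive and 27.3% (23.4 to 31.5) of Slamf6-negative cells. At 7 weeks Slamf6 was in 56.5% (43.3 to 69.0) of Id3-positive and 33.0% (27.5 to 38.8) of Id3-negative CD4 T cells. Over the 36 pairs of members in CD8 T cells, detection of one was more frequent with the other in 27 pairs at 12 weeks and 31 at 7 weeks, and the 2 intervals were apart in 7 and 9 of these. CD4 T cells gave 27 pairs at each age, with intervals apart in 4 and 2. In B cells 16 and 25 pairs ran that way, with intervals apart in 0. Satb1 and Slamf6 in CD4 T cells at 12 weeks were the 1 pair with intervals apart the other way. At this depth 10.7% of the 12 week and 15.1% of the 7 week CD4 T cells held no UMI of any member, and 5.72% and 4.65% held 5 or more members.

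**Figure D5:**
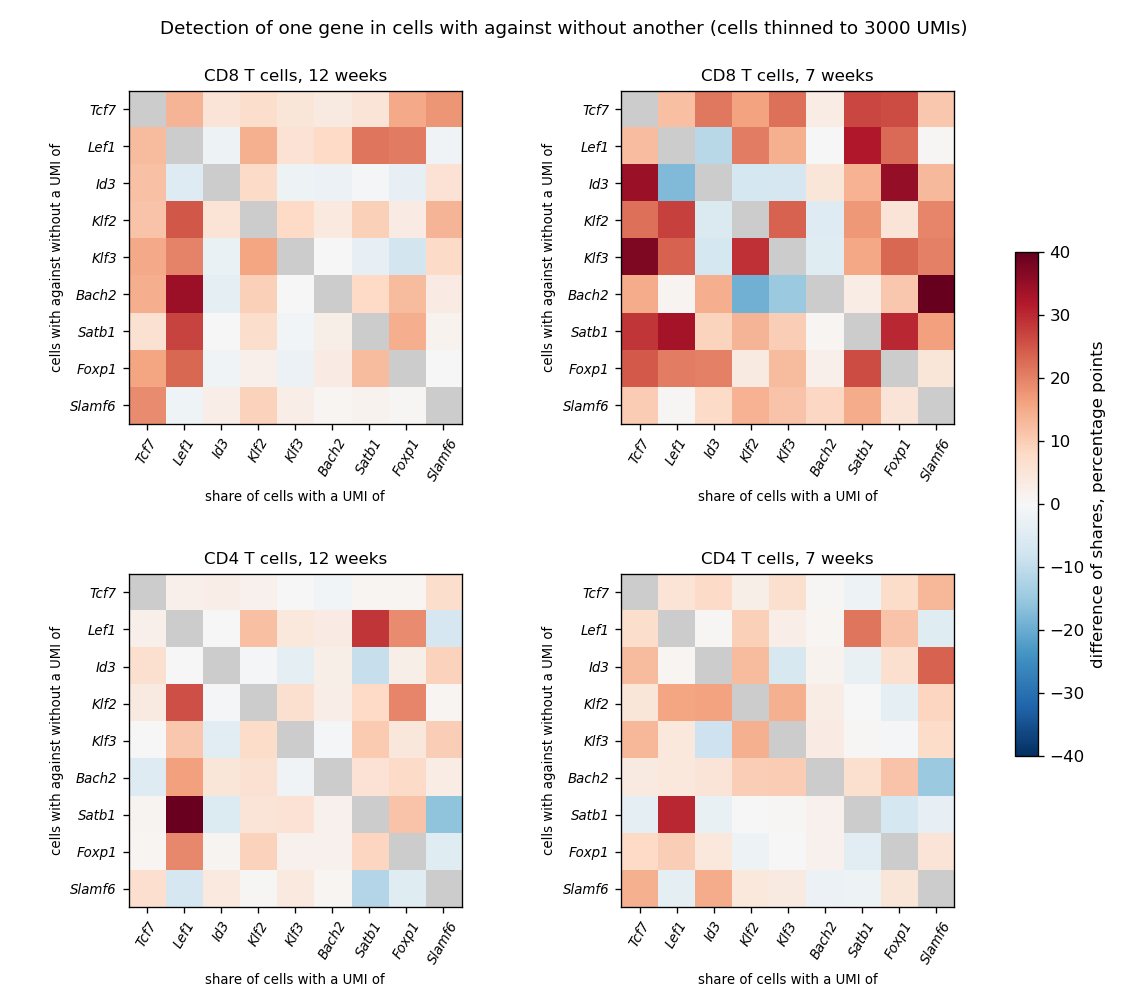
Difference in percentage points between the share of cells with a UMI of the column gene among cells with and among cells without a UMI of the row gene, in CD8 T cells (upper row) and CD4 T cells (lower row) at 12 weeks (left) and 7 weeks (right), in cells thinned to 3000 UMIs; grey marks the gene itself. Satb1 is more frequent with Lef1 in all 4 panels (28.6 points in CD4 T cells at 12 weeks), and Satb1 is less frequent with Slamf6 in CD4 T cells at 12 weeks (-11.7 points). Rows of Bach2 rest on few cells.

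Genes that work with the members were read from 7 lists. Their counts stand beside the shares of all genes past 1.5-fold, which were 6.17% higher and 6.35% lower in CD8 T cells, 4.10% and 8.18% in CD4 T cells, and 7.04% and 8.37% in B cells, and with so few genes a list nothing is read from the counts for a list as a whole. Of 17 naive and recirculation genes, 15 reached 50 UMIs in CD8 T cells, where 1 was 1.5-fold higher at 12 weeks and 0 lower, and 16 did in CD4 T cells, where 5 were higher and 1 lower. Those higher in CD4 T cells included Il7r (148 against 60.6 CPM, ratio 2.44, 2.06 to 2.90) and Ms4a4b (864 against 537 CPM, 1.61), a membrane gene of resting T cells. Of the receptors used above, Ccr7 (157 against 82.2 CPM, 1.91, 1.65 to 2.22) was also past 1.5-fold, and S1pr1 (106 against 84.8 CPM, 1.25, 1.07 to 1.47) was not. In CD8 T cells the one past 1.5-fold was Ccr9, a gut-homing chemokine receptor, at 44.9 CPM and 12.3 CPM; the 7 plasmacytoid dendritic cell markers, Ccr9 and Tcf4 among them, summed to 4.76 and 2.34 UMIs per 10000 there, and their part was not tested. Il7r, Ccr7 and S1pr1 in CD8 T cells had ratios of 1.21, 1.23 and 1.14, each with an interval that spans 1. In B cells 2 of 10 were higher and 1 lower.

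Of 14 partners and repressors of TCF-1 and LEF1, 9 reached 50 UMIs in CD8 T cells (0 higher, 1 lower), 10 in CD4 T cells (0 higher, 2 lower) and 8 in B cells (0 higher, 1 lower). Tle3, a co-repressor, was at 44.4 CPM and 71.4 CPM in CD4 T cells (ratio 0.622, 0.511 to 0.757), and Ctnnbip1, an inhibitor of beta-catenin, at 5.58 CPM and 16.6 CPM (0.336, 0.202 to 0.549). Aes, a short relative of the TLE co-repressors, was at 109 CPM and 156 CPM in CD4 T cells (0.702, 0.618 to 0.798). Gsk3b, a kinase that marks beta-catenin for destruction, was at 86.7 CPM and 89.8 CPM there.

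Of the E protein and ID genes, 6 of 7 listed names were in the matrices and 5 reached 50 UMIs in each class. Higher in CD8 T cells was 1, the E protein gene Tcf4 (18.9 against 8.17 CPM), which is also a plasmacytoid dendritic cell marker. Lower in CD4 T cells were 2, Id3 and Tcf4 (5.98 against 18.0 CPM). In B cells 1 was higher, Id2, at 79.5 CPM and 39.9 CPM (2.0, 1.48 to 2.74). Id2, the other main T cell inhibitor of E proteins, was at 282 CPM and 251 CPM in CD4 T cells (1.12, 1.02 to 1.23) and at 457 CPM and 362 CPM in CD8 T cells (1.26, 1.14 to 1.40), and in each class its interval lies above that of Id3, narrowly so in CD8 T cells (upper bound of Id3 1.13). Without its 5 richest cells the Id3 log2 ratio in CD8 T cells was 0.24, against -0.21 with them, which ends that separation.

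Of 17 effector and exhaustion transcription factors, 15 reached 50 UMIs in CD8 T cells (1 higher, 2 lower), 14 in CD4 T cells (0 higher, 2 lower) and 11 in B cells (1 higher, 4 lower). Zeb2, a transcription factor of terminal effector cells, was at 31.6 CPM and 16.3 CPM in CD8 T cells (1.93, 1.23 to 3.15), Maf at 11.5 CPM and 28.6 CPM (0.403, 0.254 to 0.638), and Nr4a2 in CD4 T cells at 30.3 CPM and 67.8 CPM (0.447, 0.358 to 0.556). The plasmacytoid dendritic cell markers summed to 4.76 and 2.34 UMIs per 10000 in CD8 T cells. The part of such cells' transcripts in the Zeb2 value was not tested. Among 16 FOXO and KLF genes, which include Klf2 and Klf3, 2 were higher and 3 lower in CD8 T cells (12 measured), 2 and 3 in CD4 T cells (15 measured), and 1 and 4 in B cells (15 measured). Tsc22d3, which encodes the glucocorticoid-induced leucine zipper and is also a FOXO target, was at 190 CPM and 71.4 CPM in CD4 T cells (2.66, 2.28 to 3.11). Btg1, an antiproliferative gene, was at 682 CPM and 1343 CPM there (0.508, 0.485 to 0.533) and at 573 CPM and 1259 CPM in B cells (0.455, 0.427 to 0.485).

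Of 12 SLAM family genes and adaptors, Slamf6 among them, 1 was higher and 1 lower in CD8 T cells (9 measured), 0 and 1 in CD4 T cells (10 measured) and 0 and 2 in B cells (8 measured). Ly9, a SLAM receptor, was at 82.9 CPM and 59.1 CPM in CD4 T cells (1.40, 1.17 to 1.69), and Sh2d1a, which encodes the adaptor that Slamf6 signals through, at 305 CPM and 286 CPM (1.07, 0.979 to 1.16). Of 16 genes of stem-like and progenitor exhausted T cells, 2 were higher and 1 lower in CD8 T cells (12 measured), 2 and 1 in CD4 T cells (14 measured) and 1 and 3 in B cells (11 measured). Tnfsf8, the ligand of CD30, was at 28.6 CPM and 15.0 CPM in CD8 T cells (1.91, 1.19 to 3.19), and Cxcl10, an interferon-induced chemokine, at 37.5 CPM and 85.1 CPM in CD4 T cells (0.440, 0.361 to 0.535). The 7 lists' median log2 ratios ran from -0.34 to 0.30 in CD8 T cells, from -0.45 to 0.12 in CD4 T cells and from -0.44 to 0.03 in B cells.

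Across 14 points (7 cell groups at both ages, with the T cells split as above) the members' levels were also compared with each other. Pearson's r of log2(CPM + 10) was 0.77 between Tcf7 and Lef1, 0.84 between Bach2 and Foxp1, 0.75 between Klf2 and Klf3, and 0.75 between Klf2 and Satb1. Id3 had values of 0.58 to 0.70 with Klf2, Klf3, Bach2, Satb1 and Foxp1, and the lowest value was -0.58, between Tcf7 and Bach2. The points share libraries and some cells, so these values are descriptions only. B cells held the lowest levels of Tcf7 and Lef1 and the highest of Bach2, and Foxp1 was highest in 7 week B cells. The values thus do not describe T cells alone, and r without B cells is not given here. Among 6994 genes with at least 200 UMIs over the points, the genes most like Tcf7 were Hpcal1 (0.934), Ppm1h (0.924) and Prkcq (0.921), the last a kinase of T cell receptor signalling. Those most like Lef1 were Ikbke (0.929), Dapl1 (0.888) and Cnga1 (0.872). For Klf2 they were Scml4 (0.929), Fto (0.919) and Dnajb4 (0.905), and for Bach2 Rapgef4 (0.951), Fau (0.949) and Ift140 (0.945).

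The order of the 14 levels differed between the members. Lef1 was highest in Ccl5 low CD8 T cells at 12 weeks (474 CPM), then Lag3 low CD4 T cells at 12 weeks (279 CPM) and Ccl5 low CD8 T cells at 7 weeks (257 CPM), and the intervals of the last 2 overlap. Tcf7 was highest in Lag3 low CD4 T cells at 7 weeks (264 CPM), followed by Ccl5 low CD8 T cells at 7 weeks (234 CPM) and Lag3 low CD4 T cells at 12 weeks (221 CPM), 3 groups whose neighbours in the order do not differ beyond their intervals. Klf2 and Klf3 were highest in Ccl5 low CD8 T cells at 7 weeks, at 105 CPM and 59.4 CPM, and Id3 in Lag3 low CD4 T cells at 7 weeks, at 99.4 CPM. Each of these 3 intervals overlaps that of the next group in its order, which was 95.9 CPM for Klf2 (Ncr1+ cells at 7 weeks), 57.7 CPM for Klf3 (Ncr1+ cells at 12 weeks) and 95.9 CPM for Id3 (Ccl5 low CD8 T cells at 7 weeks). Foxp1 and Bach2 were highest in B cells at 7 weeks, at 294 CPM and 63.3 CPM, again with intervals that overlap those of the next group. Slamf6 was highest in Lag3 low CD4 T cells at 12 weeks (205 CPM), with an interval that overlaps that of Lag3 high CD4 T cells at 7 weeks (201 CPM).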

How the data were processed

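The deposited files hold whole UMI counts per gene and cell barcode for 1 library per age, made by the authors with Cell Ranger 1.3.1 on mm10, per the submitters' processing notes; other settings are not given in the sources used here. Barcodes with at least 200 genes and at most 10% mitochondrial UMIs were kept. The automatic Scrublet threshold (scanpy 1.11.5) marked 0.285% and 0.180% of barcodes at 12 and 7 weeks and had not worked, so the highest scores were removed up to a loading rate of 0.8% per 1000 barcodes (63 and 10). Classes were set by UMI limits (T cells: at least 1 CD3 UMI and under 2 Cd79a UMIs; CD8 T: at least 2 Cd8 UMIs, no Cd4; CD4 T: at least 1 Cd4 UMI, no Cd8; Foxp3 T and Ncr1+: at least 1 UMI; B: at least 2 Cd79a UMIs). Class sums were divided by class totals. Levels carry exact Poisson, ratios exact conditional binomial and shares Clopper-Pearson intervals. No test was run and no p-value is given, since an age has a single library. Members and gene lists were chosen with earlier results of these data known; 1 listed gene is not reported here. From each list the text names genes among the 2 with the most UMIs and the 2 with interval bounds furthest from 1; Ccr7, S1pr1 and Il7r, the receptor split, the immediate early list, the macrophage and plasmacytoid dendritic cell classes and the GC box were added after values were seen. Alternatives covered scaling, depth, doublets, class limits and cycling cells.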

Additional observations from a re-analysis of the deposited data

Results flagged for a closer look

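The 12 over 7 week ratio of Lef1 was 1.65 in CD8 T, 1.96 in CD4 T, 1.68 in Foxp3 T and 2.85 in Ncr1+ cells, 1.85 in Ccl5 low CD8 T and 1.97 in Lag3 low CD4 T cells, each with an interval above 1. In B cells it was 0.415 with an interval below 1, on 23 UMIs at 12 weeks and 17 UMIs at 7 weeks, 7 of the 17 in 1 cell. In thinned B cells the log2 ratio was -0.08, against -1.27 before, so the B cell value is not read as a difference.

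Satb1 also had intervals on both sides of 1. Its ratio was 1.23 in CD4 T, 1.58 in Ccl5 high CD8 T and 1.4 in Lag3 low CD4 T cells, against 0.682 in Foxp3 T and 0.373 in Lag3 high CD4 T cells. These intervals cover counting error only, and with 1 library per age the differences between classes were not tested. In thinned CD4 T cells the Satb1 log2 ratio was 0.10, against 0.30 before.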

How the results depend on the processing

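No paired analysis was possible because each age is 1 library. The 44 single-gene values past 1.5-fold pool age ratios with low over high contrasts. They include values on under 50 UMIs, such as Lef1 in B cells. Of 252 alternatives for these 44 values, 248 gave the same sign and 224 stayed past 1.5-fold. The 4 that turned were, on the log2 scale, Klf2 in Foxp3 T cells at 0.23, Id3 in the Ccl5 contrast at 12 weeks at -0.15 and Bach2 in the Ccl5 contrast at 7 weeks at -0.23, all without cycling cells, and Bach2 in the Lag3 contrast at 12 weeks at -0.07 in thinned cells. The members' median in Foxp3 T cells was 0.23 without cycling cells and -1.16 without cells in more than 1 class. The Ccl5 contrast median was 0.42 at 12 weeks and 0.61 at 7 weeks without cycling cells. Tcf7 in CD4 T cells was at -0.45 without Foxp3 cells. Id3 in CD8 T cells was at 0.24 without its 5 richest cells, against -0.21 with them. The share of all genes past 1.5-fold moved with the UMI minimum. With at least 20 UMIs it was 10.1% higher in CD8 T, 6.49% higher in CD4 T, 15.7% lower in Foxp3 T, and 12.0% higher and 14.5% lower in Ncr1+ cells. With at least 1 UMI in each library it was 12.6% higher and 16.9% lower in CD8 T, 9.61% and 18.3% in CD4 T, 11.8% and 20.2% in B, 21.9% and 20.1% in Ncr1+ cells, and 22.8% lower in Foxp3 T cells. The causes were not tested. Members with under 50 UMIs, mainly Bach2 and those of Foxp3 T and Ncr1+ cells, could show only large differences. Alternatives that left a member at 0 UMIs gave no value.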
